A study of Mus musculus with 9 samples.

Results

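Solute carriers are the membrane proteins that move ions, nutrients and metabolites across the plasma membrane and the membranes of organelles, and their genes carry the prefix Slc and a family number. Here their transcripts were followed by poly(A) RNA sequencing in oocytes of the mouse, fresh or frozen by either of 2 methods. The members were all genes with an Slc family name, other than the mitochondrial Slc25 carriers and the iron transporters Slc40a1 and Slc11a2, that had at least 50 counts in each of the 9 libraries. This gave 111 of the 26358 genes of the table, in 37 families. Another 155 Slc genes that met the name rule fell below 50 counts in at least 1 library. At the threshold, the zinc transporter Slc30a6 was just inside, with a lowest count of 51, and Slc37a1 and Slc6a4 had lowest counts of 56 and 57. Just outside were Slc6a21, Slc12a1 and Slc9a3r1, with lowest counts of 45, 41 and 41. Of the members, 2 are not carriers in spite of their names. Slc4a1ap encodes an adaptor protein and Slc7a6os is named only for its position opposite Slc7a6.

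Each group had 3 libraries. Fresh oocytes had no cryopreservation. For cryopreservation-1 the holding device was a cryotop, and the solution held sucrose at 0.5 M and EG and DMSO at 15% each. For cryopreservation-2 it was a straw, and the solution held EG at 17.5%, trehalose at 1 M and PVA/Fe3O4/GO nanoparticles. Device, solutes and nanoparticles differ together between the methods, so their parts cannot be told apart, and the labels name no strain, age or oocyte stage.

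An oocyte takes up amino acids, pyruvate, choline and zinc through its own carriers and, while it is in the follicle, also receives small molecules from cumulus cells through gap junctions. Some carriers also set cell volume. Glycine, taken up by the transporter encoded by Slc6a9, serves the mouse egg as an organic osmolyte, and sodium-proton exchange with chloride-bicarbonate exchange brings in salt. Zinc has a particular role in the oocyte, which accumulates it during meiotic maturation and releases part of it at fertilisation.

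Total counts were 49337232 to 80877288 per library, with the 3 of cryopreservation-2 below the other 6. Oocyte markers such as Gdf9, Bmp15 and Zp3 took 0.869% to 1.57% of the counts. Markers of cumulus and granulosa cells took 0.00340% to 0.00757%, nearly all from Cyp19a1, with Ptx3 and Lhcgr between 0 and 15 counts in every library. In the tests described below, edgeR called 0 of 4 such markers between cryopreservation-2 and fresh, with 1 at an unadjusted p under 0.05. DESeq2 called 1 of 5, Has2, as lower in cryopreservation-2. Blood markers took at most 0.00146%, and stromal and endothelial markers at most 0.0159%. Slc38a3, a glutamine transporter of cumulus cells, had 0 counts in 8 of 9 libraries and 3 in the other.

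Per unit of length, carrier transcripts ranged widely. Levels between genes are given as FPKM, reads scaled by transcript length and library size, and levels of 1 gene between libraries as CPM, counts scaled to library size with TMM factors. In fresh oocytes the median member had 3.06 FPKM, with a range of 0.190 to 762, and 22 of 111 members reached 10 FPKM while 21 were under 1. The level of one gene stood far above the rest. Slc45a3, whose family holds proton-coupled sugar transporters, had 762 ± 145 FPKM in fresh (SD, n = 3, as for all FPKM values below), against 163 ± 26.5 for the next gene, Slc3a2. Next came Slc35a4 at 75.8 ± 20.6, Slc31a2 at 73.6 ± 3.94, Slc43a3 at 70.3 ± 12.9, Slc39a10 at 64.7 ± 12.6, Slc23a2 at 64.2 ± 5.53, Slc30a3 at 61.8 ± 19.3, Slc35a1 at 45.8 ± 7.82 and Slc39a6 at 37.8 ± 5.95 FPKM. From Slc35a4 to Slc39a6 each differed from its neighbour in this order by less than the sum of their SDs. The 10 together held 74.6% to 74.98% of the members' summed FPKM in the fresh libraries.

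**Figure D1:**
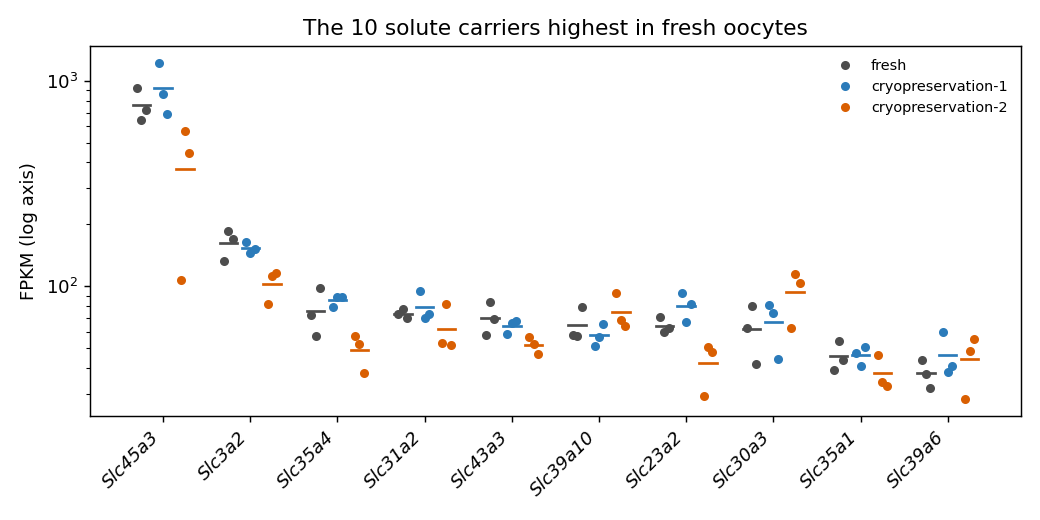
FPKM on a log axis for the 10 solute carriers with the highest mean in fresh oocytes, with 1 point per library and a line at the mean of 3 libraries of each group. Slc45a3 leads in every group, and its 3 cryopreservation-2 libraries lie below all 6 others.

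Slc45a3 also varied between libraries. Its levels were 3692, 2937 and 3026 CPM in fresh oocytes, 5007, 3531 and 2743 after cryopreservation-1 and 439, 2166 and 1651 after cryopreservation-2. The cryopreservation-2 libraries lay below all others, and replicate 1 of that group lay far below the remaining pair. The log2 fold change against fresh was -1.18 (SE 0.46, adjusted p = 0.168) and did not pass the test. Slc45a3 alone held 36.1% to 50.0% of the members' summed FPKM in the fresh and cryopreservation-1 libraries, and 10.8%, 35.2% and 31.2% in the cryopreservation-2 libraries. The summed share of all counts taken by the 111 members was 0.906% ± 0.0796 in fresh oocytes, 0.952% ± 0.124 after cryopreservation-1 and 0.695% ± 0.139 after cryopreservation-2 (SD, n = 3). The 3 cryopreservation-2 libraries, at 0.539% to 0.806%, all lay below the other 6. This sum includes Slc45a3 and was not taken without it, so it does not speak for the other members. In bulk RNA, fewer oocytes carrying a transcript and less of it per oocyte cannot be told apart.

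Differences were tested with edgeR's quasi-likelihood test over all 17545 genes that passed its filter on low counts, with all 111 members among them, and a gene is called at an adjusted p (Benjamini-Hochberg over those genes) under 0.05. Between cryopreservation-1 and fresh, 0 of 111 members were called, as were 0% of all genes tested. At an unadjusted p under 0.05 there were 4 members, against 4.72% of all genes. Of the 9773 genes with 50 counts in each library, 500 were at that level. DESeq2 called 0 members. Over all genes DESeq2 called 43 higher and 22 lower. Same-numbered libraries of these groups deviated together, and an edgeR fit of the 6 libraries with the replicate number as a block also called 0 members, with 9 at an unadjusted p under 0.05. Of all genes in that fit, 1 was called. The members' median log2 fold change was -0.11, beside 0.02 for all genes, and 41 of 111 were positive. Positive values were found in 9138 of all 17545 genes and in 4989 of the 9773 with 50 counts in each library. In 4 members all cryopreservation-1 libraries were above all fresh ones, and in 8 they were all below, where the shares were 6.37% and 3.72% over all genes and 6.59% and 4.18% over the 9773 with 50 counts in each library.

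Between cryopreservation-2 and fresh, 9 members passed, 2 of them higher and 7 lower. The calls made up 5.38% of all genes tested, 3.18% higher and 2.2% lower. Among the genes that had at least 50 counts in each library, as every member does by the rule, 8.47% were called, 5.04% higher and 3.43% lower. The genes that were higher were Slc30a1, a zinc exporter, and the adaptor gene Slc4a1ap. The genes that were lower were Slc16a5, Slc5a12, Slc26a2, Slc33a1, Slc6a20b, Slc44a2 and Slc3a2. The members' median log2 fold change was -0.44, beside -0.06 for all genes and -0.12 for those with 50 counts in each library, and 26 of 111 were positive. Positive values were found in 8344 of all 17545 genes and in 4230 of the 9773 with 50 counts in each library. The cryopreservation-2 libraries all lay below the fresh ones in 33 members and all above in 4, where the shares were 12.4% and 15.1% over all genes and 16.9% and 16.2% over those with 50 counts in each library. At an unadjusted p under 0.05 there were 39 members, against 21.8% of all genes. Of the 9773 genes with 50 counts in each library, 2895 were at that level. Where no comparison is named, a log2 value below is that of cryopreservation-2 against fresh, and FPKM values of the 3 groups are in the order fresh, cryopreservation-1 and cryopreservation-2. In 79 of 111 members the lowest of the 9 libraries was a cryopreservation-2 library, a share not taken over all genes. It was replicate 1 in 39, replicate 2 in 12 and replicate 3 in 28. Genes at 10 counts were fewest in replicate 1 (14751, against up to 16788), with 16106 and 16010 in replicates 2 and 3. Fresh replicate 3, with 14881 such genes, was the lowest library in 5 members. The part of depth and of cryopreservation-2 replicate 1 was not tested, beyond the count of calls without that library. This count was 2 higher and 7 lower with 6 of the 9 genes shared. Over all genes that count was 495 higher and 291 lower.

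The number of members called rested on single libraries. It was 3, 1 and 1 without fresh replicate 1, 2 or 3, and 4 without cryopreservation-1 replicate 1 or 2, which enter only through the spread. It was 2 and 1 without cryopreservation-2 replicate 2 or 3. Calls over all genes fell in the same fits, from 558 higher and 386 lower with all libraries. Without fresh replicate 1, 2 or 3 they were 239 and 159, 411 and 183, and 153 and 78. Without cryopreservation-1 replicate 1 or 2 they were 335 and 156, and 355 and 156. Without cryopreservation-2 replicate 2 or 3 they were 212 and 153, and 214 and 68. DESeq2 called 23 members, 3 higher and 20 lower, and included all 9, beside 1456 higher and 1245 lower over all genes. An edgeR fit corrected for GC content and transcript length called 21, 3 higher and 18 lower, beside 433 and 1311 over all genes. That correction moved the median of all genes to -0.25 and the share of higher among all calls from 59.1% to 24.8%, and with it the members' median was -0.55. The members' transcripts are long, with a median of 3750 bases beside 2548 for all genes tested, and within the members the 55 longer and the 56 shorter ones had medians of -0.42 and -0.50.

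**Figure D2:**
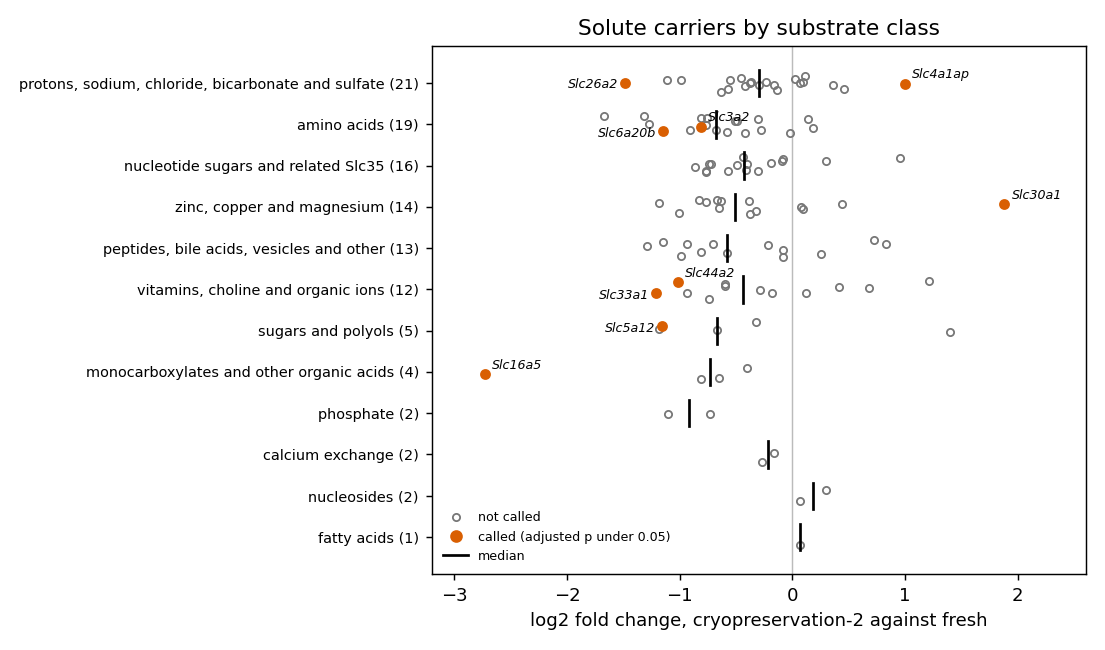
Log2 fold change of cryopreservation-2 against fresh for each of the 111 members (points, spread vertically only to separate them), by substrate class, with the number of members in brackets and a black line at the class median. Classes follow family number, so Slc5a12, a carrier of pyruvate and lactate, stands with sugars and polyols, and the adaptor gene Slc4a1ap with the ion carriers. Filled points are the 9 called members, 2 of them to the right of 0 and 7 to the left, and the median lies below 0 in all classes but nucleosides and fatty acids.

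Between cryopreservation-2 and cryopreservation-1, 4 members were called, Slc30a1 and Slc35b3 higher and Slc16a5 and Slc23a2 lower. The calls made up 2.75% of all genes, 1.5% higher and 1.25% lower, and 4.24% of genes with 50 counts in each library, 2.34% higher and 1.89% lower. The median of the members was -0.39, beside -0.07 for all genes. All cryopreservation-2 libraries were below all cryopreservation-1 libraries in 36 members and above in 7, against 15.2% and 13.8% of all genes and 19.5% and 15.4% of those with 50 counts in each library. The comparison shares its cryopreservation-2 libraries with the one against fresh. The count was 0 without cryopreservation-1 replicate 1 or 3, 2 without its replicate 2, and 1, 2 and 2 without cryopreservation-2 replicate 1, 2 or 3. Calls over all genes fell in the same fits, from 263 higher and 220 lower with all libraries. Without cryopreservation-1 replicate 1, 2 or 3 they were 7 and 8, 65 and 38, and 6 and 10. Without cryopreservation-2 replicate 1, 2 or 3 they were 160 and 77, 84 and 90, and 65 and 31. DESeq2 called 17 members, beside 1086 higher and 1022 lower over all genes.

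The zinc exporter Slc30a1 had the largest rise among the members. It encodes ZnT1, which carries zinc from the cytosol out across the plasma membrane. The gene (ENSMUSG00000037434, chromosome 1, 191906767 to 191913247, plus strand, GRCm38) had 9.46, 3.80 and 4.56 CPM in fresh oocytes, 3.41, 2.68 and 2.02 after cryopreservation-1 and 20.02, 25.2 and 20.4 after cryopreservation-2. All 3 cryopreservation-2 libraries were above all 6 others, and the cryopreservation-1 libraries were below the fresh ones. Cryopreservation-2 was 3.68-fold higher than fresh, a log2 difference of 1.88 (SE 0.38, adjusted p = 0.0238), and 8.09-fold higher than cryopreservation-1, at a log2 difference of 3.02 (SE 0.40, adjusted p = 0.00983). Cryopreservation-1 against fresh was a log2 difference of -1.13 (SE 0.38, adjusted p = 1). The call against fresh was lost without fresh replicate 2 or 3 or cryopreservation-2 replicate 2 or 3, with adjusted p up to 0.086, and that against cryopreservation-1 without its replicate 1 or 3, up to 0.0595. The log2 fold changes with 1 library left out were 1.64 to 2.39 and 2.84 to 3.22.

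Transcription of Slc30a1 is known to respond to zinc through the factor encoded by Mtf1, which binds metal response elements, as it does at the metallothionein genes Mt1 and Mt2. The promoters are shown because these genes are the textbook set under that factor and can be set beside their levels. The search was for the element's core, TGCACNC or TGCGCNC, on both strands of the 250 bases before the start in RefSeq (GRCm38.p6), where 92 of 111 members had an entry. Capitals mark the matches, and each run is on the gene's own strand, 5′ to 3′. Slc30a1 is at chr1:191906531-191906780, Mt1 at chr8:94178839-94179088 and Mt2 at chr8:94172368-94172617, all on the plus strand.
Slc30a1: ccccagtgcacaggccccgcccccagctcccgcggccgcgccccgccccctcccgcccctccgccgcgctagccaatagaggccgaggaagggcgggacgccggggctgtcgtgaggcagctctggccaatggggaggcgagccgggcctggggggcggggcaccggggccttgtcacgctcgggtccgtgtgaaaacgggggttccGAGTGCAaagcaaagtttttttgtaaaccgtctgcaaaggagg
Mt1: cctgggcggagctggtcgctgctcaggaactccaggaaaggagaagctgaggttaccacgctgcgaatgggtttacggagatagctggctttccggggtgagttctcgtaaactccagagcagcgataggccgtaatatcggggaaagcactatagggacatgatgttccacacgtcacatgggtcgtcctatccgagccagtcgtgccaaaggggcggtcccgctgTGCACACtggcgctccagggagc
Mt2: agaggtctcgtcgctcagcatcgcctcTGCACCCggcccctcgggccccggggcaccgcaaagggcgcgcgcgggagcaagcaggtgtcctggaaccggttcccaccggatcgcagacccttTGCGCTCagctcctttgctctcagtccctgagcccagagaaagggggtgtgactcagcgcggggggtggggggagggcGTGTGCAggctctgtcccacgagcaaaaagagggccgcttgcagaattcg

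Within these windows Slc30a1 has 1 match, 43 to 37 bases before the start and read on the other strand, Mt1 has 1 and Mt2 has 3. Bases outside the windows were not searched, so these are not counts of all elements of a gene. The core is short and common. It occurred in the promoters of 23.8% of all genes in the table, in 35 of 92 members and in 8 of 13 zinc, copper and magnesium carriers (61.5%), and a match is a description of the letters only. The metallothionein genes were at low levels in every group. Mt1 had 1.08, 0.158 and 0 CPM in fresh and 0.422, 0.401 and 1.0 in cryopreservation-2, with an adjusted p of 0.885. Mt2 had 1.64, 0.173 and 0.127 and 0.824, 2.12 and 0.150 CPM, with an adjusted p of 0.800. In both genes the groups overlapped. Mtf1 had 174, 171 and 155 CPM in fresh oocytes, 225, 210.4 and 182 after cryopreservation-1 and 94.1, 167 and 132 after cryopreservation-2, with an adjusted p of 0.416 between cryopreservation-2 and fresh.

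Of the other 13 zinc, copper and magnesium carriers, edgeR called 0 in each comparison, with 3 at an unadjusted p under 0.05 between cryopreservation-2 and fresh, where DESeq2 called Slc39a9 as lower. Their class had a median log2 fold change of -0.51 between cryopreservation-2 and fresh, with 4 of 14 positive. The importers Slc39a6 and Slc39a10, which are known to bring zinc into the maturing oocyte, were among the most abundant carriers, with 37.8 ± 5.95, 46.4 ± 11.8 and 44.04 ± 14.1 FPKM and 64.7 ± 12.6, 57.7 ± 7.24 and 75.1 ± 15.2 FPKM in fresh, cryopreservation-1 and cryopreservation-2. Their log2 fold changes for cryopreservation-2 against fresh were 0.07 (SE 0.26, adjusted p = 0.914) and 0.09 (SE 0.23, adjusted p = 0.875), and the groups overlapped. Slc30a3, which loads zinc into vesicles, had 61.8 ± 19.3, 66.7 ± 19.8 and 93.5 ± 27.4 FPKM, and its groups overlapped too (adjusted p = 0.496). The zinc importer Slc39a9 was at 27.1, 27.4 and 51.1 CPM in fresh oocytes, 26.8, 24.9 and 28.9 after cryopreservation-1 and 14.5, 15.2 and 22.9 after cryopreservation-2. Its cryopreservation-2 libraries were below all fresh ones without passing the test, at a log2 difference of -1.01 (SE 0.30, adjusted p = 0.0841). Slc39a9 overlaps Erh on the opposite strand, and reads of the pair cannot be told apart where the counting strand is not given. Slc30a6, the lowest of its family for cryopreservation-2 against fresh, had 2.33, 2.96 and 1.55 CPM in fresh and 1.42, 0.930 and 1.67 in cryopreservation-2, at a log2 difference of -0.77 (SE 0.53, adjusted p = 0.450). Slc31a2, a copper transporter related to Slc31a1, had 73.6 ± 3.94, 79.5 ± 13.7 and 62.2 ± 17 FPKM, and the magnesium carrier Slc41a1 had 14.3, 7.31 and 10.5 CPM in fresh and 2.17, 7.26 and 4.73 in cryopreservation-2, at a log2 difference of -1.18 (SE 0.43, adjusted p = 0.141).

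**Figure D3:**
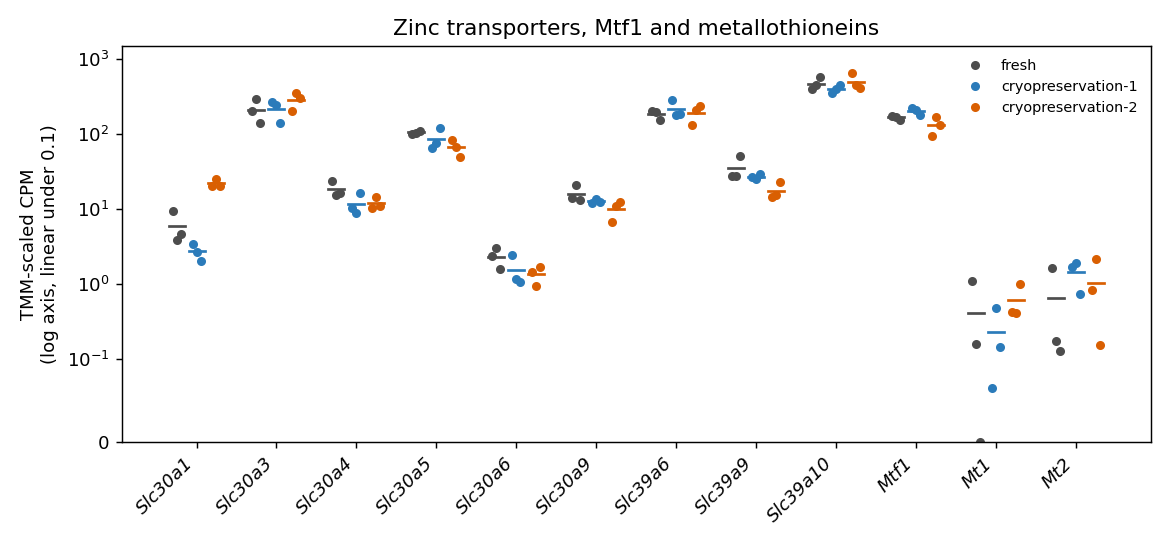
TMM-scaled CPM per library, on an axis that is logarithmic above 0.1 and linear below, for the 9 zinc transporters among the members, Mtf1, Mt1 and Mt2, with a line at each group mean. Slc30a1 is the gene whose cryopreservation-2 libraries, at 20.02 to 25.2 CPM, are all above the 6 others, while Mt1 and Mt2 lie near or below 2 CPM in every group.

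Among the 19 members classed by family number as amino acid carriers, 2 were lower in cryopreservation-2 than in fresh and 0 higher. The median log2 fold change was -0.68, and 2 of 19 were positive. The class also holds Slc7a6os, which is no carrier, the nucleobase carrier Slc43a3, and the serotonin transporter Slc6a4, which is 1 of the 2 positive. In 8 of the 19 all cryopreservation-2 libraries lay below all fresh ones, beside 33 of all 111 members and 16.9% of genes with 50 counts in each library. The same held for 6 of 16 Slc35 members, 5 of 14 carriers of zinc, copper and magnesium and 4 of 12 of vitamins, choline and organic ions. It held for 2 of 21 members classed with protons, sodium, chloride, bicarbonate and sulfate. Slc3a2 (ENSMUSG00000010095, chromosome 19, 8706882 to 8723369, minus strand) encodes the heavy chain that the light chains of the Slc7 family need to reach the plasma membrane. Its libraries were at 528, 836 and 705 CPM in fresh oocytes, 664, 585 and 598 after cryopreservation-1 and 333, 422 and 423 after cryopreservation-2. The cryopreservation-2 values lay below all others, and the log2 fold change against fresh was -0.81 (SE 0.21, adjusted p = 0.0484). The call is near the threshold, and was lost without any 1 of 8 libraries (all but fresh replicate 1), with adjusted p up to 0.126 and log2 differences of -0.97 to -0.65.

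The light chains were not called. Slc7a5, which forms the large neutral amino acid transporter with Slc3a2, had 20.3, 11.1 and 22.2 CPM in fresh oocytes, 29.5, 20.7 and 22.9 after cryopreservation-1 and 3.30, 11.6 and 7.33 after cryopreservation-2. Cryopreservation-2 lay below cryopreservation-1 in every library, with a log2 difference of -1.71 (SE 0.44, adjusted p = 0.0657), and overlapped with fresh, with a log2 difference of -1.27 (SE 0.43, adjusted p = 0.119). Slc7a11, the light chain of the cystine-glutamate exchanger, had 167, 75.2 and 126 CPM in fresh oocytes, 68.7, 69.2 and 104 after cryopreservation-1 and 98.4, 64.5 and 98.9 after cryopreservation-2, and its groups overlapped. Slc7a6, a light chain for cationic and neutral amino acids, stood at 1.70 ± 0.760, 1.72 ± 0.296 and 1.34 ± 0.354 FPKM, and its groups overlapped as well. The cationic carrier Slc7a1, which needs no heavy chain, had the lowest fold change of its family, -1.31 (SE 0.40, adjusted p = 0.0876), from 68.2, 48.2 and 50.6 CPM in fresh to 9.85, 32.5 and 24.8, without overlap. The family's highest was Slc7a6os, the opposite-strand neighbour, at a log2 difference of -0.02 (SE 0.22, adjusted p = 0.977).

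In the sodium-coupled Slc6 family, 6 of 7 members had negative fold changes and 1 was called. Slc6a20b (ENSMUSG00000025243, chromosome 9, 123590800 to 123632565, minus strand) is a neighbour and close relative of Slc6a20a, which encodes a proline and betaine transporter. It had 22.9, 27.6 and 24.3 CPM in fresh oocytes, 19.7, 18.2 and 13.8 after cryopreservation-1 and 8.39, 15.3 and 10.1 after cryopreservation-2. All 3 values of each frozen group lay below the fresh ones, and the log2 differences from fresh were -1.15 (SE 0.28, adjusted p = 0.0430) for cryopreservation-2 and -0.53 (SE 0.28, adjusted p = 1) for cryopreservation-1. This call was lost without any 1 of 8 libraries (all but cryopreservation-2 replicate 2), with adjusted p up to 0.153. The gene overlaps Sacm1l on the opposite strand, and 9.96% of its 50-base words also occur in Slc6a20a, so its level is uncertain. Slc6a20a itself was more abundant, at 23.4 ± 1.62, 22.4 ± 3.03 and 15.1 ± 5.37 FPKM against 2.44 ± 0.0709, 1.77 ± 0.290 and 1.22 ± 0.418 FPKM, and gave a log2 difference of -0.76 (SE 0.25, adjusted p = 0.114). The glycine transporter Slc6a9 had 31.98, 19.5 and 20.4 CPM in fresh oocytes, 29.9, 33.4 and 22.4 after cryopreservation-1 and 4.35, 21.01 and 15.6 after cryopreservation-2, and the taurine transporter Slc6a6 had 151, 183 and 127 CPM in fresh oocytes, 195, 126 and 136 after cryopreservation-1 and 70.9, 108 and 92.01 after cryopreservation-2. For Slc6a9 cryopreservation-2 overlapped with fresh, at a log2 difference of -0.81 (SE 0.47, adjusted p = 0.362). For Slc6a6 it lay below all other libraries, at a log2 difference of -0.76 (SE 0.25, adjusted p = 0.0998), and neither passed the test. Slc6a4, the serotonin transporter, had the highest fold change of the family, 0.18 (SE 0.53, adjusted p = 0.894), at under 5 CPM in every library.

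The largest fall in the members was that of Slc16a5 (ENSMUSG00000045775, chromosome 11, 115462474 to 115474398, plus strand). It belongs to the monocarboxylate transporter family that carries lactate and pyruvate, though its own substrates are less well known. Its levels were 10.5, 10.5 and 8.36 CPM in fresh oocytes, 7.44, 4.08 and 7.40 after cryopreservation-1 and 1.13, 2.06 and 1.23 after cryopreservation-2. No cryopreservation-2 library reached the lowest of the other 6, and the level was 6.62-fold lower than in fresh, a log2 difference of -2.73 (SE 0.38, adjusted p = 0.00677). Against cryopreservation-1 the log2 fold change was -2.09 (SE 0.38, adjusted p = 0.0233). The call against fresh held without each of the 9 libraries in turn, with adjusted p of 0.0113 to 0.0325, and was lost at 0.0545 when the 3 libraries with the fewest genes at 10 counts were left out together. The call against cryopreservation-1 was lost without its replicate 1 or 3 or cryopreservation-2 replicate 1 or 3, with adjusted p up to 0.106.

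A sodium-coupled carrier of pyruvate and lactate was also called as lower. Slc5a12 (ENSMUSG00000041644, chromosome 2, 110597298 to 110647779, plus strand), which belongs to the family of sodium-glucose carriers, had 25.5, 27.9 and 35.5 CPM in fresh oocytes, 23.2, 20 and 21.7 after cryopreservation-1 and 16.5, 12.8 and 10.7 after cryopreservation-2. The 3 groups did not overlap with each other, and cryopreservation-2 was 2.22-fold lower than fresh, with a log2 difference of -1.15 (SE 0.25, adjusted p = 0.0277). It was no longer called without any fresh library, cryopreservation-1 replicate 1 or 2, or cryopreservation-2 replicate 2 or 3, with adjusted p up to 0.101. Slc16a1, the main proton-linked carrier of lactate and pyruvate, had 27.4, 32.7 and 45.6 CPM in fresh oocytes, 39.2, 36.2 and 44.4 after cryopreservation-1 and 21.1, 23.2 and 23.2 after cryopreservation-2. Its cryopreservation-2 values were below all others, at a log2 difference of -0.65 (SE 0.23, adjusted p = 0.135) against fresh, which did not pass the test. Of the sugar carriers, the glucose transporter Slc2a1 had 10.8 ± 1.25, 13.8 ± 1.895 and 7.59 ± 2.95 FPKM, with a log2 difference of -0.67 (SE 0.29, adjusted p = 0.214). Slc2a12, another glucose transporter, had 3.54, 2.07 and 2.54 CPM in fresh oocytes, 4.60, 4.09 and 2.90 after cryopreservation-1 and 9.85, 5.58 and 6.05 after cryopreservation-2, all cryopreservation-2 values above the others, and a log2 difference of 1.40 (SE 0.38, adjusted p = 0.0611). Slc2a12 overlaps Tbpl1 on the opposite strand, which has more counts, so its reads cannot be told apart from those of Tbpl1.

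**Figure D4:**
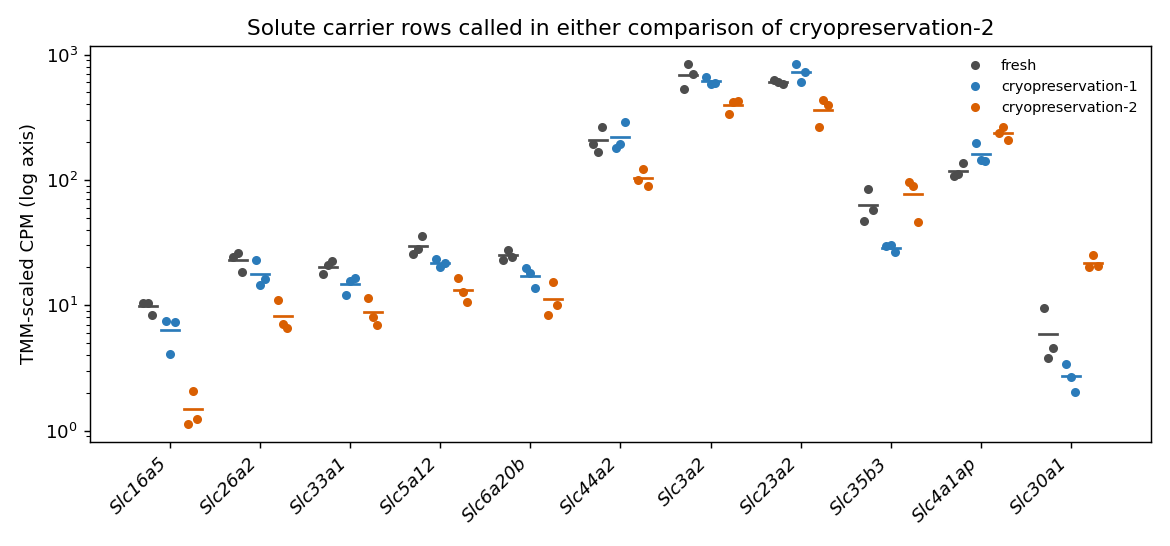
TMM-scaled CPM on a log axis for the 11 members called in a comparison of cryopreservation-2 with fresh or with cryopreservation-1, with 1 point per library and a line at each group mean. Slc16a5 and Slc30a1 at the ends of the order show the widest gaps between cryopreservation-2 and the other groups.

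Of 12 members classed by family number as carriers of vitamins, choline and organic ions, 2 were lower and 0 higher in cryopreservation-2 than in fresh, with a median of -0.44. Slc33a1 (ENSMUSG00000027822, chromosome 3, 63933507 to 63964768, minus strand) carries acetyl-CoA into the endoplasmic reticulum. It had 17.7, 20.8 and 22.5 CPM in fresh oocytes, 12.1, 15.7 and 16.5 after cryopreservation-1 and 11.5, 8.01 and 6.92 after cryopreservation-2, with no overlap between any groups, and a log2 difference of -1.21 (SE 0.27, adjusted p = 0.0334). The call was lost without any fresh library, cryopreservation-1 replicate 1 or 2, or cryopreservation-2 replicate 2 or 3, with adjusted p up to 0.116. Slc44a2 (ENSMUSG00000057193, chromosome 9, 21320698 to 21355028, plus strand), a choline transporter-like protein, had 192, 168 and 267 CPM in fresh oocytes, 180.4, 195 and 287 after cryopreservation-1 and 98.9, 122 and 88.7 after cryopreservation-2. Its cryopreservation-2 values lay below all others, at a log2 difference of -1.02 (SE 0.25, adjusted p = 0.0464) against fresh and a log2 difference of -1.10 (SE 0.25, adjusted p = 0.0501) against cryopreservation-1. This call was lost without any 1 of 8 libraries (all but cryopreservation-1 replicate 3), with adjusted p up to 0.174. Its relative Slc44a1, the better known choline carrier, had 55.03, 31.7 and 34.7 CPM in fresh oocytes, 20.5, 25.9 and 23.1 after cryopreservation-1 and 59.9, 37.03 and 35.4 after cryopreservation-2. Here cryopreservation-1 lay below both other groups, at a log2 difference of -0.80 (SE 0.29, adjusted p = 1) against fresh, and cryopreservation-2 overlapped with fresh.

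Slc23a2 (ENSMUSG00000027340, chromosome 2, 132052496 to 132145108, minus strand), the sodium-coupled ascorbate transporter, had 629, 609 and 585 CPM in fresh oocytes, 842, 609.9 and 731 after cryopreservation-1 and 267, 431 and 394 after cryopreservation-2. Cryopreservation-2 lay below both other groups. It was 2.0-fold lower than cryopreservation-1, at a log2 difference of -1.0 (SE 0.21, adjusted p = 0.0391), and against fresh it gave a log2 difference of -0.74 (SE 0.21, adjusted p = 0.0742), which missed the threshold. It was no longer called without any 1 of 8 libraries (all but fresh replicate 2), with adjusted p up to 0.164. The carnitine transporter Slc22a5 had 17.4, 13.1 and 21.5 CPM in fresh and 9.54, 10.2 and 7.37 in cryopreservation-2, without overlap, at a log2 difference of -0.94 (SE 0.26, adjusted p = 0.0662), and shares 26.95% of its 50-base words with Slc22a21.

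Sulfate and its activated form are handled by carriers of separate families. Slc26a2, a plasma membrane sulfate transporter, had 24.5, 25.98 and 18.4 CPM in fresh oocytes, 23.1, 14.4 and 16.1 after cryopreservation-1 and 11.1, 7.02 and 6.55 after cryopreservation-2. The cryopreservation-2 values were below all others, and the level was 2.80-fold lower than in fresh, with a log2 difference of -1.48 (SE 0.30, adjusted p = 0.0241). The call was lost without any fresh library or cryopreservation-2 replicate 2 or 3, with adjusted p up to 0.0846. Slc35b3 (ENSMUSG00000021432, chromosome 13, 38932136 to 38960875, minus strand) brings the activated sulfate PAPS into the Golgi. It had 47.4, 84.7 and 57.2 CPM in fresh oocytes, 29.4, 30.1 and 26.4 after cryopreservation-1 and 97.1, 90.2 and 45.8 after cryopreservation-2. The cryopreservation-1 libraries were the low ones, below all 6 others, while cryopreservation-2 overlapped with fresh. Cryopreservation-2 was 2.71-fold higher than cryopreservation-1, at a log2 difference of 1.44 (SE 0.31, adjusted p = 0.0410), and cryopreservation-1 against fresh gave a log2 difference of -1.14 (SE 0.31, adjusted p = 1), with an unadjusted p of 0.00417. This call was lost without fresh replicate 3, any cryopreservation-1 library, or cryopreservation-2 replicate 1 or 2, with adjusted p up to 0.16. Slc35b2, the other PAPS transporter, had 10.5, 15.2 and 8.87 CPM in fresh oocytes, 13.5, 15.01 and 8.61 after cryopreservation-1 and 10.6, 10.8 and 11.1 after cryopreservation-2, and its groups overlapped.

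The 16 members of the Slc35 family, most of which carry nucleotide sugars into the Golgi and endoplasmic reticulum for glycosylation, had 0 calls between cryopreservation-2 and fresh (edgeR; 3 at an unadjusted p under 0.05, and DESeq2 called Slc35a4 as lower), with 2 of 16 positive and a median of -0.43. The most abundant was Slc35a4, at 75.8 ± 20.6, 85.5 ± 5.23 and 49.1 ± 10.2 FPKM, followed by the CMP-sialic acid carrier Slc35a1 at 45.8 ± 7.82, 46.4 ± 5.001 and 37.8 ± 7.51 FPKM. For Slc35a4 all cryopreservation-2 values lay below the others, at a log2 difference of -0.74 (SE 0.24, adjusted p = 0.103), and 14.3% of its 50-base words also occur in Gm5866. Slc35a3, a UDP-N-acetylglucosamine carrier, had the lowest fold change of the family, -0.86 (SE 0.34, adjusted p = 0.166), and Slc35c2 the highest, 0.96 (SE 0.49, adjusted p = 0.293). Slc35f6 varied little between libraries, with 45.6, 42.3 and 40.3 CPM in fresh oocytes, 53.7, 49.6 and 47.99 after cryopreservation-1 and 37.6, 37.2 and 37.7 after cryopreservation-2. Its cryopreservation-1 values were all above the fresh ones and its cryopreservation-2 values all below, yet the log2 fold changes, 0.24 and -0.19, did not pass the test.

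The families classed as carriers of protons, sodium, chloride, bicarbonate and sulfate, 21 genes with a median of -0.30, held 1 call in each direction, Slc26a2 and Slc4a1ap. Slc4a1ap (ENSMUSG00000029141, chromosome 5, 31526995 to 31554460, plus strand) encodes kanadaptin, an adaptor named for an interaction with the anion exchanger encoded by Slc4a1. It had 108, 112 and 137 CPM in fresh oocytes, 196, 145 and 143 after cryopreservation-1 and 236, 266 and 209 after cryopreservation-2. The 3 groups did not overlap, with fresh lowest and cryopreservation-2 highest, and cryopreservation-2 was 1.995-fold higher than fresh, at a log2 difference of 1.0 (SE 0.20, adjusted p = 0.0238). It was no longer called without any fresh library or cryopreservation-2 replicate 2 or 3, with adjusted p up to 0.0832. With Slc4a1ap left aside as no carrier, Slc30a1 was the one carrier called higher than in fresh by the main edgeR fit. DESeq2 called 3 members higher. Among 20 alternative settings, Slc30a1 was called in 14 and the glucose transporter Slc2a12 in 4.

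The exchangers known for acid-base balance and volume in oocytes were at low to moderate levels. Of the 16 carriers of the Slc4, Slc9 and Slc12 families, 0 were called between cryopreservation-2 and fresh by edgeR or DESeq2, with 2 at an unadjusted p under 0.05 by edgeR. The anion exchanger Slc4a2 had under 4 CPM in every library, and overlaps Fastk on the opposite strand. The sodium-bicarbonate cotransporter Slc4a7 had 69.6, 46.4 and 70.9 CPM in fresh and 45.3, 38.4 and 36.5 in cryopreservation-2, without overlap, at a log2 difference of -0.64 (SE 0.26, adjusted p = 0.179). Slc9b2 had the highest fold change of the Slc9 genes, 0.11 (SE 0.53, adjusted p = 0.937). Of the cation-chloride cotransporters, all 5 had negative fold changes for cryopreservation-2 against fresh, with overlap between these groups, and Slc12a7 had the lowest, -1.11 (SE 0.49, adjusted p = 0.222). The sodium-potassium-chloride cotransporter Slc12a2 had 16.4, 4.14 and 14.6 CPM in fresh oocytes, 4.98, 4.28 and 8.14 after cryopreservation-1 and 7.21, 8.01 and 8.80 after cryopreservation-2, with overlap throughout. The anion exchanger Slc26a6 had 32.3, 32.3 and 27.9 CPM in fresh and 42.97, 43.5 and 36.5 in cryopreservation-1, all above fresh, at a log2 difference of 0.41 (SE 0.26, adjusted p = 1).

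Both phosphate importers gave lower values in cryopreservation-2 than in every other library without passing the test. Slc20a1 had 74.7, 50.1 and 61.8 CPM in fresh oocytes, 47.2, 38.7 and 75.1 after cryopreservation-1 and 30.9, 21.1 and 35.1 after cryopreservation-2, at a log2 difference of -1.10 (SE 0.30, adjusted p = 0.0633). Slc20a2 gave a log2 difference of -0.73 (SE 0.27, adjusted p = 0.153). Slc43a3, a nucleobase carrier of an amino acid carrier family, was among the most abundant members at 70.3 ± 12.9, 64.3 ± 5.04 and 51.98 ± 4.70 FPKM, with a log2 difference of -0.58 (SE 0.21, adjusted p = 0.145). Slc38a10, a relative of the glutamine transporters, was the member with the largest positive fold change in cryopreservation-1, 0.94 (SE 0.40, adjusted p = 1), from 2.41, 2.82 and 2.44 CPM in fresh to 5.61, 5.24 and 3.85, without overlap. In cryopreservation-2 it had 1.57, 3.23 and 3.65 CPM.

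Genes that work with the carriers were read as lists. Of 12 accessory proteins of transporters tested, 2 were higher and 1 lower in cryopreservation-2 than in fresh. Txnip, which promotes the uptake of glucose carriers from the cell surface into the cell, had 148, 154 and 123 CPM in fresh oocytes, 229.6, 179 and 248 after cryopreservation-1 and 212, 338 and 345 after cryopreservation-2, with a log2 difference of 1.08 (SE 0.23, adjusted p = 0.0293). Pdzk1, a scaffold for transporters, had 16.7, 12.04 and 19.9 CPM in fresh oocytes, 25.04, 20.7 and 21.9 after cryopreservation-1 and 40.4, 32.9 and 26.7 after cryopreservation-2, and gave a log2 difference of 1.04 (SE 0.26, adjusted p = 0.0471). Emb, a chaperone of monocarboxylate transporters, had 30.9, 50.96 and 42.7 CPM in fresh oocytes, 35.03, 36.5 and 44.3 after cryopreservation-1 and 20.7, 18.6 and 10.4 after cryopreservation-2, and fell, at a log2 difference of -1.33 (SE 0.30, adjusted p = 0.0338). The other such chaperone, Bsg, had overlapping groups, at a log2 difference of -0.03 (SE 0.41, adjusted p = 0.979). DESeq2 called the same 3 genes, but by edgeR the calls rested on single libraries. Txnip was lost without any fresh library, cryopreservation-1 replicate 1, or cryopreservation-2 replicate 2 or 3 (adjusted p up to 0.104), and Pdzk1 without any of the 9 (up to 0.113). Emb was lost without fresh replicate 2 or 3, cryopreservation-1 replicate 1 or 2, or cryopreservation-2 replicate 2 or 3 (up to 0.0943).

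Of 27 genes of amino acid sensing by mTORC1, 1 was higher and 2 were lower by edgeR. DESeq2, with 30 in its fit, called 2 higher and 5 lower, these 3 among them. Nprl2, of the complex that restrains mTORC1 when amino acids are scarce, had 68.7, 92.8 and 69.3 CPM in fresh oocytes, 89.7, 119 and 105 after cryopreservation-1 and 141, 134 and 133 after cryopreservation-2, with all cryopreservation-2 libraries above the others, and gave a log2 difference of 0.82 (SE 0.20, adjusted p = 0.0398). Flcn, which acts on the Rag GTPases, had 322, 285 and 373 CPM in fresh oocytes, 355, 332 and 394 after cryopreservation-1 and 125, 210 and 128 after cryopreservation-2, and gave a log2 difference of -1.08 (SE 0.23, adjusted p = 0.0288). Wdr24, of the complex opposed to that of Nprl2, had 21.8, 14.7 and 26.2 CPM in fresh oocytes, 21.8, 22.3 and 17.4 after cryopreservation-1 and 6.61, 8.04 and 7.07 after cryopreservation-2, and gave a log2 difference of -1.53 (SE 0.27, adjusted p = 0.0149). Flcn and Wdr24 were also lower than in cryopreservation-1, with no overlap between cryopreservation-2 and the other libraries, at a log2 difference of -1.22 (SE 0.23, adjusted p = 0.0281) and a log2 difference of -1.50 (SE 0.27, adjusted p = 0.0233). Against fresh, the call of Nprl2 was lost without any 1 of 8 libraries (all but fresh replicate 2), with adjusted p up to 0.132. That of Flcn was lost without fresh replicate 1 or 3, cryopreservation-1 replicate 1 or 2, or cryopreservation-2 replicate 1 or 3, up to 0.127, and that of Wdr24 without fresh replicate 3 or cryopreservation-2 replicate 3, up to 0.0660. Of 19 ABC transporters, 1 was higher, the lysosomal cobalamin transporter gene Abcd4, with 8.03, 10.9 and 4.40 CPM in fresh oocytes, 15.5, 14.7 and 7.69 after cryopreservation-1 and 35.7, 35.7 and 44.1 after cryopreservation-2 and a log2 difference of 2.31 (SE 0.38, adjusted p = 0.0113) against fresh. Of 23 ABC transporters in its fit, DESeq2 called 2 higher and 3 lower. By edgeR, 0 of 5 sodium pump genes, 10 genes of the WNK pathway, 18 MFSD carriers, 2 gap junction genes and 3 genes of zinc binding and sensing were called between cryopreservation-2 and fresh, with 2, 1, 5, 0 and 0 at an unadjusted p under 0.05. DESeq2, with 7, 10, 23, 3 and 3 genes of these lists in its fit, called 1, 1, 2, 0 and 0. Between cryopreservation-1 and fresh, edgeR called 0 genes of these lists, and DESeq2 called 1, the synaptic vesicle gene Sv2a of the MFSD list.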

How the data were processed

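Poly(A) RNA of mouse oocytes was sequenced in 9 libraries, 3 per group, from dUTP strand-marked cDNA amplified by PCR, per the labels' protocols. The submitters' processing notes name cutadapt 1.9, HISAT2 2.0.4, StringTie 1.3.4d and the build GRCm38. How reads were counted, with which strand setting and annotation, is not stated in these sources. The authors deposited raw whole-number counts per gene, not normalized, and FPKM values, which are those counts scaled by gene length and by library. Selection on poly(A) can favour transcripts with longer tails, and PCR copies were not told apart.

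Counts were tested with edgeR 4.0.16 in R 4.3.3 (quasi-likelihood test, TMM scaling, filterByExpr with minimum count 10 and total 15, 17545 genes, 1 fit over all 9 libraries). P-values were adjusted by Benjamini and Hochberg within each comparison and a gene was called under 0.05. The common biological coefficient of variation was 0.662. Alternatives used DESeq2 1.42.0, limma 3.58.1 on log2(FPKM + 1) or log2(FPKM + 0.1), other filters and scalings, a replicate block, corrections for GC content and length, and libraries left out. On simulated data with 200 of 17545 genes changed, comparisons of cryopreservation-2 with fresh called 77.0% of 4-fold and 11.0% of 2-fold changes among genes above 5 CPM. The shares were 78.7% and 14.0% for cryopreservation-1 with fresh.

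Whether replicates are separate animals or pools is not in the labels, so p-values reflect the spread among these samples alone, which may be technical. Libraries of 1 group always differed by more than sampling noise (chi-square per degree of freedom 85.8 to 326). Total counts were 49337232 to 80877288, and their counting error is small beside the spread between libraries for all but the rarest members. The labels number the replicates without saying that a number marks a shared source. Over 8091 genes, deviations from the group means correlated at 0.27 to 0.47 for the 3 same-numbered pairs of fresh and cryopreservation-1, beside -0.37 to 0.0893 for unlike numbers, so these were also fitted as pairs, in a fit added after seeing the data. Cryopreservation-2 showed no such pairing by number, though some of its unlike-numbered pairs correlated, up to 0.35 with fresh and 0.46 with cryopreservation-1.

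The members, lists and rules were chosen with earlier results of these data known. The genes named are all members called, the up to 5 higher and 5 lower members with the smallest unadjusted p and no overlap in comparisons with few calls, the 10 highest in fresh, carriers with a known role in oocytes or volume, the extremes of families with at least 5 members, called genes of the lists, and members near the threshold. Other members that are named (Slc2a12, Slc35b2, Slc41a1, Slc22a5, Slc39a9, Slc20a2 and Slc6a20a) and Bsg, Mtf1, Mt1 and Mt2 serve as neighbours of these and were in part chosen after their values were seen. The values of 2 members that these rules name are not reported here. Families were put into substrate classes by family number, and Slc23 was moved from nucleobases to vitamins after the values were seen. Promoters are RefSeq sequences of GRCm38.p6, and shared 50-base words and lengths come from GENCODE transcripts of GRCm38.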

Additional observations from a re-analysis of the deposited data

How the results depend on the processing

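Between cryopreservation-1 and fresh, 0 members were called under every alternative run, leaving out each library in turn included. Over all genes DESeq2 called 43 higher and 22 lower, and no other alternative called more than 1. Between cryopreservation-2 and fresh the count of 9 moved to 23 with DESeq2, 21 with a GC and length correction, 5 with limma on log2(FPKM + 1) without a filter and 2 with the groups fitted alone, and ranged from 1 to 9 with 1 library left out. It stayed within 1.5 times (6 to 10) with RLE size factors, without a filter, with filtered limma, and with members chosen by mean count or by at least 10 counts. Over all genes the calls were 558 higher and 386 lower in the main fit and 1456 and 1245 with DESeq2. They were 433 and 1311 with the GC and length correction, and 352 and 77 with the groups alone. Limma on log2(FPKM + 1) gave 1364 and 460 filtered and 1125 and 231 without a filter. RLE size factors gave 595 and 353, and edgeR without a filter 440 and 231. Between cryopreservation-2 and cryopreservation-1 the count of 4 moved to 17 with DESeq2 and to 7 with limma on log2(FPKM + 1) and on log2(FPKM + 0.1), and ranged from 0 to 4 with 1 library left out. Over all genes, 263 higher and 220 lower became 1086 and 1022 with DESeq2. With limma they became 882 and 489, and 728 and 425. Leaving out the 3 libraries with the fewest genes at 10 counts, chosen after seeing the data, left 1 call and 0 calls. Over all genes it left 146 higher and 48 lower, and 0. The cause of these changes was not tested. The 50-count rule left out 10 Slc genes that were under it in cryopreservation-2 libraries alone, 2 in fresh alone and 2 in cryopreservation-1 alone.

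Between cryopreservation-2 and the other groups the replicate numbers did not pair the libraries. Their same-numbered libraries had correlations of -0.45 to 0.17, and 1 of 3 was above 0.1 with each group. Unlike-numbered ones ranged from -0.21 to 0.35 with fresh and from -0.36 to 0.46 with cryopreservation-1. For cryopreservation-1 and fresh the block changed no call. With the replicate number as a block, 4 members were called between cryopreservation-2 and fresh and 1 between cryopreservation-2 and cryopreservation-1, of which 3 (Slc30a1, Slc16a5 and Slc26a2) and 1 (Slc30a1) were shared with the fit without it, and with the block and the GC and length correction together 11 and 5. Over all genes the block gave 352 higher and 148 lower, and 150 and 80. The block and correction together gave 276 and 752, and 164 and 286.

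No called member, and none of the 7 called genes of the lists, changed sign under any alternative, and of those 7 Abcd4 alone was called against fresh in all 20. Named members that were not called did so for cryopreservation-2 against fresh (log2). With 1 library left out, Slc38a10 ranged from -0.061 to 0.48, Slc44a1 from -0.11 to 0.41, Slc39a10 from -0.0912 to 0.25, Slc39a6 from -0.0639 to 0.34, Slc4a2 from -0.18 to 0.30, Slc6a4 from -0.15 to 0.54, Slc7a6os from -0.11 to 0.20 and Slc9b2 from -0.31 to 0.63. Slc7a6os was 0.0921 with limma on log2(FPKM + 1), with and without a filter, 0.0949 on log2(FPKM + 0.1), 0.0499 with the groups alone and 0.18 without the 3 libraries named above, where Slc44a1 was -0.17 and Slc9b2 -0.63. Slc7a6os was called as lower with the GC and length correction, at -0.62 (adjusted p = 0.0392 by edgeR). Slc39a6 was -0.00776 with the GC and length correction.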

Other observations

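Of the 155 Slc genes below 50 counts in at least 1 library, 103 entered the fit and edgeR called 0 of these in each comparison, with 5 at an unadjusted p under 0.05 between cryopreservation-1 and fresh, 9 between cryopreservation-2 and fresh and 4 between the frozen groups. DESeq2 called 0, 6 and 2 of the 155 genes in these comparisons. The smallest adjusted p between cryopreservation-2 and fresh was that of Slc35c1, a carrier of GDP-fucose into the Golgi. It had 80, 60 and 31 counts in fresh, 114, 223 and 223 in cryopreservation-1 and 99, 221 and 241 in cryopreservation-2, with an adjusted p of 0.0538 by edgeR. Slc39a8, a zinc and manganese importer, had 740 counts in cryopreservation-2 replicate 3 and 0 to 54 in the other 8 libraries. Slc28a1, a nucleoside carrier, had 5, 45 and 4 counts in fresh and 185, 91 and 59 in cryopreservation-2. The glucose transporter Slc2a3 had 100, 0 and 52 counts in fresh, 0, 5 and 39 in cryopreservation-1 and 0 in each cryopreservation-2 library. Slc35c1, Slc39a8 and Slc28a1 were chosen after their values were seen.

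Several carriers known from oocytes or from volume control were low or close to absent as transcripts. The betaine carrier Slc6a12 had 0 to 13 counts, the glutamine carriers Slc38a2 and Slc38a3 0 to 46 and 0 to 3, the glutamate carrier Slc1a1 0 to 52, the glucose carrier Slc2a8 0 to 27 and the pyruvate carrier Slc16a7 0 to 51. The inositol carrier Slc5a3 was low but present in fresh, with 115, 65 and 107 counts. It had 51, 202 and 48 in cryopreservation-1 and 0, 18 and 57 in cryopreservation-2. The nucleoside carrier Slc29a1 had 9 to 101 counts.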
